A study of Rattus norvegicus with 18 samples.

Results

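Myelin is the lipid-rich sheath that oligodendrocytes wrap around axons in the brain. The 10 genes described here, of 14218 that the array names, are Mbp, Mobp, Mag, Mog, Cnp, Cldn11, Bcas1, Ugt8, Sox10 and Lpar1, which are known as genes of myelin or of the cells that make it. Their probe sets were all those whose only gene symbol in the array's probe-to-gene annotation was 1 of these names. There were 18 such probe sets among the 31099 of the array, and 17 of them, with at least 1 for each gene, were bright enough to be tested. Total RNA came from rat amygdala, hippocampus and cortex, on 18 Affymetrix arrays. In each region 3 arrays were labelled chronic immobilization stress and 3 were labelled handled, a control without stress. The labels name no strain, age, stress schedule or genetic alteration.

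A further label field gave amygdala as the source of every array, so the region was taken from the title and description of each. Nothing in the labels says that replicate arrays were made from different animals, so every p-value reflects array-to-array spread alone, and that spread may be technical. The arrays had median intensities of 49.1 to 56.4, in arbitrary linear units. Arrays of 1 group had Spearman correlations of 0.929 to 0.969 with each other over the probe sets that are not controls. On every array the brightest probe set of each of the 10 genes read above 31.68, the mean intensity used as the filter on dim probe sets, so these oligodendrocyte transcripts were measured in all 3 regions. In bulk tissue, fewer oligodendrocytes and less of a transcript per oligodendrocyte cannot be told apart, and this holds for every result below.

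The genes cover the layers and the making of the sheath. Mbp encodes myelin basic protein, which holds the cytoplasmic faces of the membrane together, and Mobp encodes another abundant protein of compact myelin. Mag is an adhesion protein at the inner face towards the axon, and Mog lies on the outer surface of the sheath. Cnp is a cyclic nucleotide phosphodiesterase of non-compact myelin, and Cldn11 forms the tight junctions between myelin layers. Ugt8 makes galactosylceramide, a main myelin lipid, and Bcas1 marks oligodendrocytes that are starting to myelinate. Sox10 is the transcription factor that keeps the lineage's identity, and Lpar1 is a receptor for lysophosphatidic acid that oligodendrocytes carry.

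Windows around the starts of these genes are shown because Sox10 is itself a member and SOX proteins are known to bind ACAAAG and related letters. RefSeq gave 7 windows for 6 of the 10 genes (Mag, Cldn11, Ugt8, Mobp, Cnp and 2 starts of Mbp) on build GRCr8, each of 300 bases, 250 before and 50 from the start onwards. ACAAAG and AACAAT, neither of which contains the other, were searched on both strands. ACAAAG was found in 4 of the 7 windows and in 18.8% of all 33469 windows of the same length. AACAAT was found in 1 of the 7, at a second Mbp start, and in 11.7% of all windows. The Mobp window (chr8:128746982-128747281, plus strand) held 8 copies of ACAAAG, all of which read CTTTGT on the strand printed. In all, 3 windows (0.00896%) held at least 8, and the highest number in any window was 10. The 8 Mobp copies lie in a stretch of recurring similar letters, so they are not independent matches. The Mag window (chr1:95290995-95291294, minus strand) and the Cnp window (chr10:86011254-86011553, plus strand) held 1 copy each. The Cldn11 window (chr2:114149490-114149789, minus strand) held neither motif. Capitals mark ACAAAG or its reverse complement CTTTGT, and each sequence runs 5′ to 3′ on the gene's strand.
Mobp: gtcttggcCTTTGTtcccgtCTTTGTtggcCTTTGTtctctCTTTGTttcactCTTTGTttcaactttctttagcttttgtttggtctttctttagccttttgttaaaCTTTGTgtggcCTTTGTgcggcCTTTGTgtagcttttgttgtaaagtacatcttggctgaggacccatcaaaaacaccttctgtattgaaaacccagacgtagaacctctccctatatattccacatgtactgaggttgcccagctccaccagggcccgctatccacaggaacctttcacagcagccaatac
Mag: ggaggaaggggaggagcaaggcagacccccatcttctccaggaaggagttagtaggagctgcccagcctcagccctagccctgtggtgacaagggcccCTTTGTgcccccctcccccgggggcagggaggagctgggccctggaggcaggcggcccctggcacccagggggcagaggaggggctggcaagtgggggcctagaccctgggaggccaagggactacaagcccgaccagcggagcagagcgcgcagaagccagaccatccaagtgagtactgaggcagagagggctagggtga
Cnp: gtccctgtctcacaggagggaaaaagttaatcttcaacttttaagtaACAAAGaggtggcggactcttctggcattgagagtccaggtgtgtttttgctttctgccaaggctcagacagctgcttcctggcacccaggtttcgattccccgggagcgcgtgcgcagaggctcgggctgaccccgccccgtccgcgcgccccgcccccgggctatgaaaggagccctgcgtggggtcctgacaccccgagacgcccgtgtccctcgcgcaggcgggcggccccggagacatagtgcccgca
Cldn11: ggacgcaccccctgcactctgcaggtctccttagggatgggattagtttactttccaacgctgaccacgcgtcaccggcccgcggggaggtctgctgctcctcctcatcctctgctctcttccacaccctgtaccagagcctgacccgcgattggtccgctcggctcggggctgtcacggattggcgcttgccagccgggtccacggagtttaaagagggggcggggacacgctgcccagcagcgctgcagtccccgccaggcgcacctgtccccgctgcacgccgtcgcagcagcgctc
A match of letters is a description of the window and not a measured binding site.

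In the handled rats the genes followed 1 regional order. The mean intensity was highest in hippocampus, lower in amygdala and lowest in cortex for 9 of the 10, while Sox10 was highest in amygdala. The same order held for the same 9 genes in the stress arrays. Changes below are differences of log2(intensity + 16) with the standard error from limma, a linear model fitted over all 18 arrays. A gene is represented by its brightest probe set, and it passed where the p adjusted by the Benjamini-Hochberg method over all 18625 tested probe sets was under 0.05. Amygdala was lower than hippocampus for 9 of 10 genes (median difference -0.45), where 14% of the 10267 genes tested were lower. Amygdala was higher than cortex for all 10 (median 0.55), where 7.68% of all genes were higher. Hippocampus was higher than cortex for all 10 (median 1.17), against 13.2% of all genes.

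Mobp showed the widest step of the 10 between hippocampus and cortex on the log2 scale. Its intensities in handled rats were 3422, 3278 and 3524 in amygdala, 4578, 4639 and 4333 in hippocampus, and 1682, 1694 and 1626 in cortex. No arrays of different regions overlapped, and the hippocampal mean was 2.71 times the cortical mean (log2 difference 1.43 ± 0.07, adjusted p = 8.24e-14). Mag was next, with a hippocampal mean 2.76 times the cortical one on the linear scale and a log2 difference of 1.39 ± 0.10. Mbp had the smallest ratio, 1.63. Sox10 gave 127, 117 and 125 in amygdala, 122, 108 and 113 in hippocampus, and 70.4, 56.1 and 77.5 in cortex. Its amygdala and hippocampus arrays overlapped (0.09 ± 0.14, adjusted p = 0.693), and both lay above cortex.

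**Figure D1:**
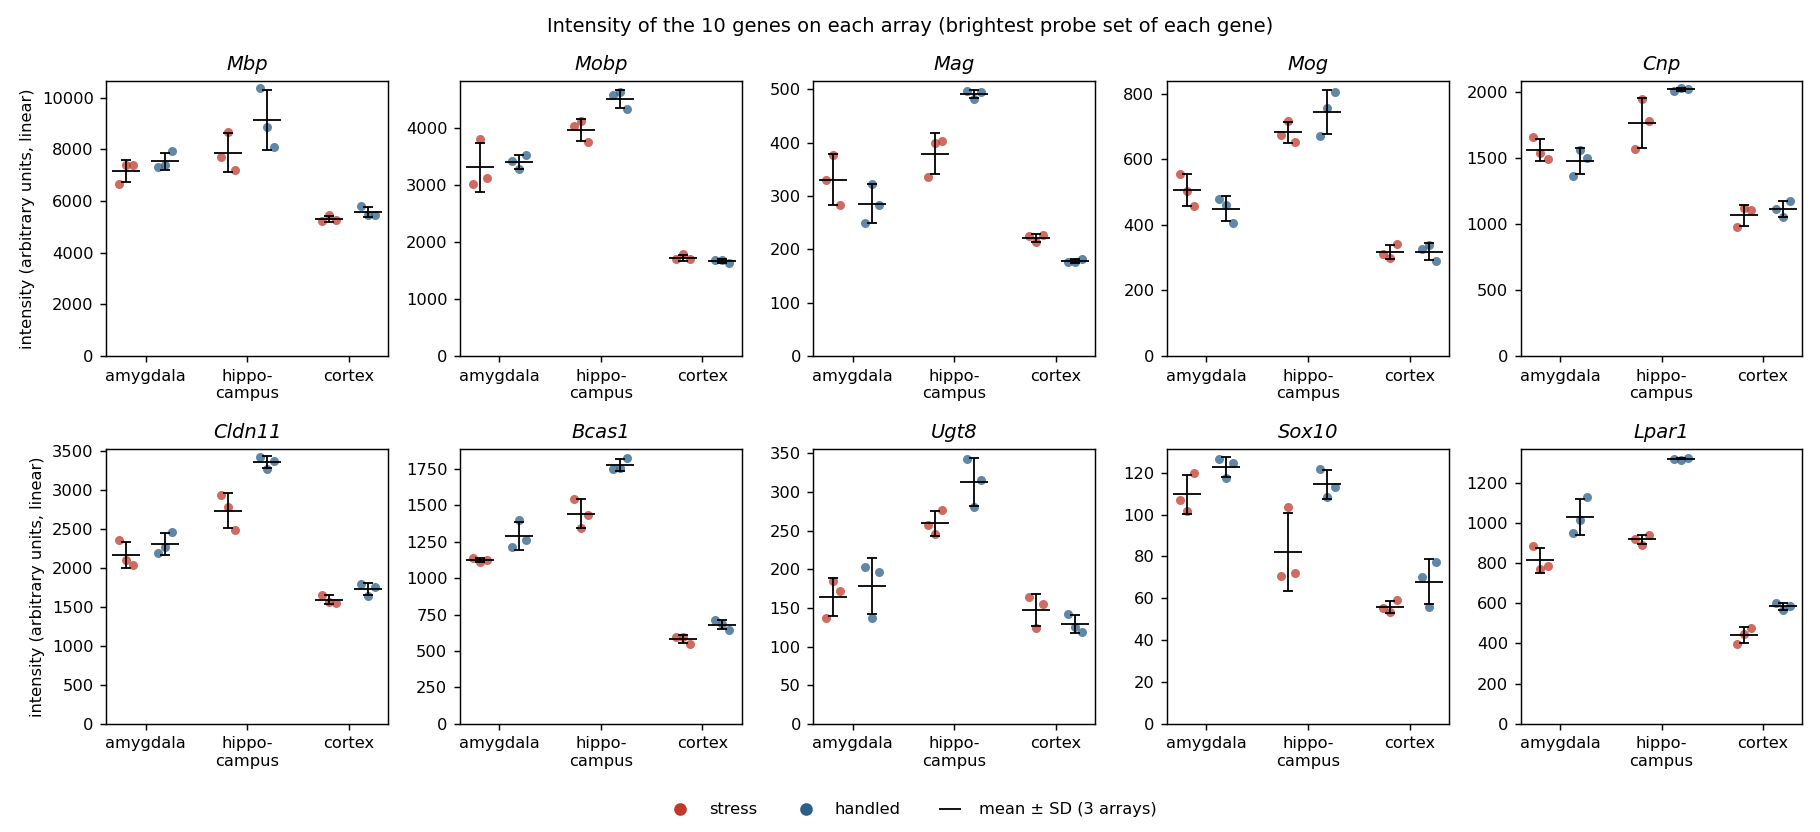
Intensity (arbitrary units, linear axis from 0) of the brightest probe set of each of the 10 genes, with 1 point per array, stress in red left of handled in blue in each region, and bars for the mean ± SD of 3 arrays. Handled hippocampus was the highest of the 6 groups for 9 genes, and for Lpar1 the stress points lay below the handled points in all 3 regions.

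The comparison of stress with handling asks how the genes of myelin differed after chronic immobilization in each region. Lpar1 was the gene that passed as lower in all 3 regions. In hippocampus all 10 genes were below handled, by a median of 0.27 on the log2 scale, and Lpar1, Bcas1 and Cldn11 passed. In amygdala and cortex 7 of 10 were below handled, and only Lpar1 passed. No member passed as higher in any region.

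Lpar1 had intensities of 922, 893 and 940 in stress hippocampus, against 1321, 1316 and 1322 in handled hippocampus. Every stress array lay well below the handled arrays, which differed little among themselves. The stress mean was 918 ± 23.7 and the handled mean 1320 ± 3.06 (SD, n = 3 each), a ratio of 0.696 (log2 change -0.52 ± 0.07, adjusted p = 5.94e-04 by limma). The amygdala gave 887, 772 and 785 with stress, against 952, 1015 and 1129 with handling. The groups did not overlap, but the highest stress array came close to the lowest handled array. Here the ratio was 0.789 (-0.34 ± 0.07, adjusted p = 0.0112). In cortex the values were 400, 448 and 476 with stress, against 603, 565 and 587 with handling. The groups again did not overlap, and the ratio was 0.754 (-0.40 ± 0.07, adjusted p = 0.00974).

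The hippocampal call of Lpar1 at its brightest probe set was kept in 29 of 29 alternative settings, with changes of -0.53 to -0.46. The amygdala call was lost without stress array 2 (adjusted p = 0.0643), without handled array 3 (0.104) and in 3 other settings. The cortex call was lost without stress array 1 (adjusted p = 0.0928), without handled array 1 (0.0703), without handled array 3 (0.0545) and in 3 other settings. At that probe set the change kept its sign in every setting run.

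A dimmer probe set of Lpar1 differed from the brightest one in amygdala. It read 223, 175 and 177 with stress, against 175, 171 and 199 with handling, and these groups overlapped (0.07 ± 0.12, adjusted p = 0.859). In hippocampus it read 190, 190 and 182 with stress, against 256, 274 and 252 with handling. In cortex it read 86.3, 76.6 and 93.2 with stress, against 111, 154 and 121 with handling. In neither region did the groups overlap, and the changes were -0.44 ± 0.12 (adjusted p = 0.115) and -0.50 ± 0.12 (adjusted p = 0.0584). The log2 difference between them, dimmer minus brightest, was -1.91, -2.05 and -2.05 in stress amygdala, against -2.34, -2.46 and -2.42 in handled amygdala, without overlap. The amygdala change of Lpar1 therefore rests on 1 of its 2 probe sets.

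In hippocampus the members all lay on the lower side. All 17 tested probe sets and all 10 genes were below handled, where 48.3% of all genes were. Of the 10, 3 genes passed as lower, where 0.263% of the genes tested passed as lower. The members were chosen with earlier results of these data known. They were read on the same arrays, so their directions are not independent observations. At an unadjusted p under 0.05 there were 8 of 10, where 5.64% of all genes were lower at that level. The median change of -0.27 stood beside 0.006 over all genes. The stress and handled arrays did not overlap for 8 of the 10, all lower, where 6.78% of all genes were lower without overlap and 7.54% were higher. Mbp and Mog were the genes whose arrays overlapped at the brightest probe set. At the dimmer probe sets of Mbp the arrays did not overlap (-0.32 ± 0.11 and -0.25 ± 0.09), and neither passed. They did overlap at a dimmer probe set of Mobp and at that of Cldn11. The summed intensity of the 10 genes was 19017 to 21237 on the stress arrays, against 22693 to 25102 on the handled arrays.

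Among the hippocampal genes past the threshold, Bcas1 read 1547, 1348 and 1434 with stress, against 1753, 1758 and 1824 with handling. The groups lay apart (-0.30 ± 0.06, adjusted p = 0.0380). Cldn11 read 2938, 2779 and 2491 with stress, against 3424, 3271 and 3370 with handling. These groups also lay apart (-0.30 ± 0.07, adjusted p = 0.0483), while its dimmer probe set overlapped (-0.23 ± 0.16). Both calls stood near the threshold: Bcas1 kept its call in 15 of 29 alternative settings and Cldn11 in 9, with adjusted p of up to 0.214 and 0.224. No setting turned the sign of either.

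The remaining hippocampal members did not pass. Mag, the inner adhesion protein, read 335, 400 and 402 with stress, against 497, 482 and 494 with handling, without overlap (-0.37 ± 0.10, adjusted p = 0.134). Sox10 read 70.6, 104 and 72.0 with stress, against 122, 108 and 113 with handling. The highest stress array came close to the handled arrays, and the change was -0.43 ± 0.14 (adjusted p = 0.231). Cnp gave 1566, 1942 and 1775 with stress, against 2004, 2025 and 2020 with handling (-0.20 ± 0.07, adjusted p = 0.314). Mobp gave 4039, 4128 and 3752 with stress, against 4578, 4639 and 4333 with handling (-0.18 ± 0.07, adjusted p = 0.284). Neither Cnp nor Mobp overlapped between groups at the brightest probe set. Ugt8, the galactosylceramide enzyme, gave 257, 245 and 277 with stress, against 343, 280 and 316 with handling. Its gap was narrow, and the change was -0.25 ± 0.14 (adjusted p = 0.519). Mbp gave 7724, 8681 and 7221 with stress, against 10388, 8885 and 8095 with handling (-0.21 ± 0.07, adjusted p = 0.274). Mog gave 676, 718 and 655 with stress, against 673, 759 and 806 with handling, the smallest hippocampal difference of the 10 (-0.12 ± 0.09, adjusted p = 0.664).

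**Figure D2:**
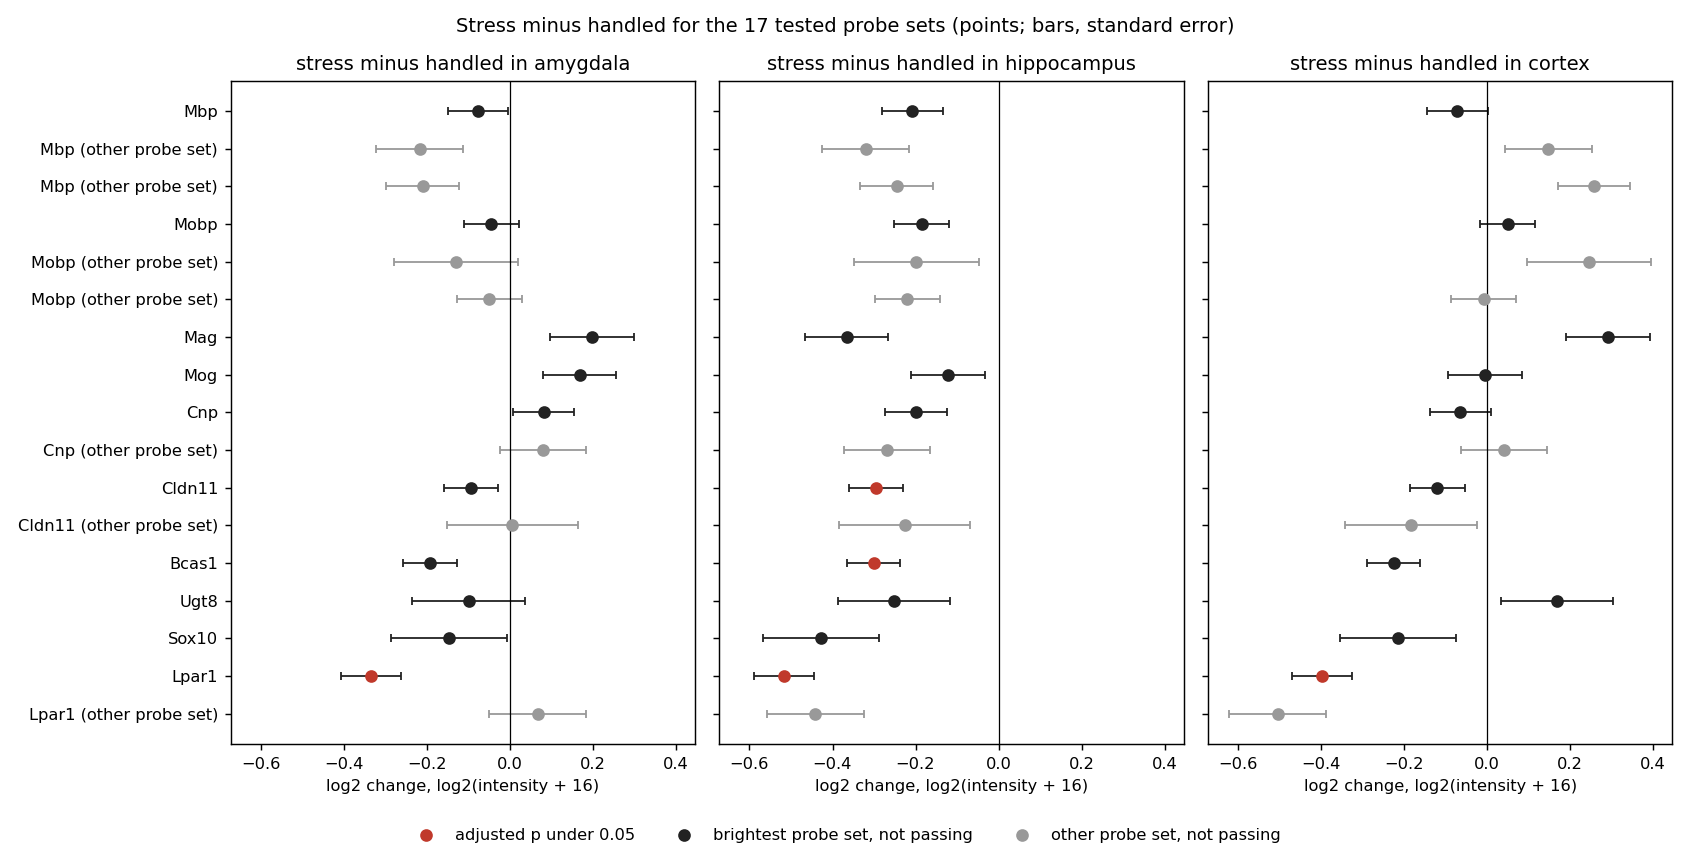
Change with stress (stress minus handled, difference of log2(intensity + 16), points with standard-error bars) of the 17 tested probe sets in each region, red where the adjusted p was under 0.05, black for a gene's brightest probe set and grey for its other probe sets. All 17 points lay below 0 in hippocampus, 11 in amygdala and 10 in cortex.

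In amygdala the members were mixed. There 1 of 10 passed as lower, Lpar1, where 1.44% of all genes passed as lower. The median change was -0.09 beside 0.024 over all genes, and 7 of 10 were below 0. Under quantile normalization Mbp, at -0.08 with the deposited scaling, turned to 0.03 at its brightest probe set. There it kept its sign in 28 of 29 alternative settings, as did Mobp, Cnp and Ugt8. The dimmer probe sets of Mbp were further below handled, at -0.22 ± 0.11 and -0.21 ± 0.09, and neither passed. Arrays did not overlap for 2 of 10, Bcas1 and Lpar1, both lower, where 7.02% of all genes were lower and 9.17% higher without overlap. Bcas1 read 1141, 1111 and 1124 with stress, against 1213, 1398 and 1262 with handling. Its stress arrays were tightly grouped below the handled ones, but the change did not pass (-0.19 ± 0.06, adjusted p = 0.142). Mag, Mog and Cnp were above handled, at 0.20 ± 0.10, 0.17 ± 0.09 and 0.08 ± 0.07, and none passed. Mag read 330, 377 and 282 with stress, against 249, 323 and 283 with handling. Mog read 556, 504 and 459 with stress, against 480, 461 and 406 with handling. The groups overlapped for both.

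In cortex the member that passed was again Lpar1, 1 of 10, where 0.302% of all genes passed as lower. The median change was -0.07 beside -0.0098 over all genes. Arrays did not overlap for 3 of 10 on the lower side (Mbp, Bcas1 and Lpar1) and for 2 of 10 on the higher side (Mobp and Mag), where 12.6% of all genes were lower and 10.8% higher without overlap. The Mobp gap was narrow, with 1701, 1783 and 1695 with stress, against 1682, 1694 and 1626 with handling. Mag read 225, 213 and 226 with stress, against 176, 176 and 182 with handling. It was the cortical member furthest above handled, at a ratio of 1.24, and did not pass (0.29 ± 0.10, adjusted p = 0.284). Bcas1 read 597, 596 and 551 with stress, against 711, 688 and 646 with handling (-0.22 ± 0.06, adjusted p = 0.158).

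The 3 probe sets of Mbp differed in direction in cortex. The brightest read 5222, 5455 and 5248 with stress, against 5798, 5471 and 5473 with handling, a narrow gap downwards (-0.07 ± 0.07). The second read 2540, 2498 and 2409 with stress, against 2239, 2217 and 2260 with handling (0.15 ± 0.11). The dimmest read 337, 353 and 325 with stress, against 299, 290 and 254 with handling (0.26 ± 0.09, adjusted p = 0.268). Both dimmer probe sets were thus above handled without overlap while the brightest was below, and none of the 3 passed. In hippocampus all 3 were below handled. The part of a transcript that each probe set reads is not known here, so a splice form or a transcript end cannot be assigned to it.

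Averaged over the 3 regions, whose arrays were treated as independent although the labels do not settle this, the stress effect passed as lower for 3 of 10 members, where 2.67% of all genes passed as lower. Lpar1 had -0.42 ± 0.04 (adjusted p = 2.19e-06), Bcas1 -0.24 ± 0.04 (adjusted p = 3.38e-04) and Cldn11 -0.17 ± 0.04 (adjusted p = 0.00950). Bcas1 was below handled without overlap in each region, though it passed alone only in hippocampus. Sox10 had -0.26 ± 0.08 (adjusted p = 0.0633). The dimmer Lpar1 probe set also passed here (-0.29 ± 0.07, adjusted p = 0.0121). Mag, at 0.04, and Mog, at 0.01, were the 2 members above 0.

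Whether the stress effect differed between regions was tested directly, and no member passed. Between amygdala and hippocampus, all 10 differences (amygdala minus hippocampus) were above 0, with a median of 0.19, and the lowest adjusted p was 0.201. At an unadjusted p under 0.05 there were 4 of 10, where 7.97% of all genes reached that level in either direction and 0.039% passed after adjustment. Between amygdala and cortex no member had an unadjusted p under 0.05 at its brightest probe set, where 9.37% of all genes did, and the lowest adjusted p was 0.705, with 0.127% of all genes passing. Among the dimmer probe sets, that of Lpar1 had a difference (amygdala minus cortex) of 0.57 ± 0.17 (adjusted p = 0.223), the dimmest of Mbp -0.47 ± 0.12 (adjusted p = 0.161) and the second of Mbp -0.37 ± 0.15 (adjusted p = 0.416). These 3 had an unadjusted p of 0.00228, 0.00101 and 0.0223. Between hippocampus and cortex 0.107% of all genes passed. All 10 differences (hippocampus minus cortex) were below 0, with a median of -0.16, and 3 of 10 had an unadjusted p under 0.05, where 5.93% of all genes did. The 2 comparisons that involve hippocampus share its 6 arrays. Mag gave the widest of these differences, 0.56 ± 0.14 for amygdala minus hippocampus (adjusted p = 0.201) and -0.66 ± 0.14 for hippocampus minus cortex (adjusted p = 0.134). The second passed in a fit of only the arrays compared (adjusted p = 0.0236). For Lpar1 the difference was 0.18 ± 0.10 for amygdala minus hippocampus, with a 95% interval of -0.03 to 0.39, at the brightest probe set. Its dimmer probe set gave 0.51 ± 0.17 for the same comparison, with a 95% interval of 0.16 to 0.85 (adjusted p = 0.374). For hippocampus minus cortex the brightest gave -0.12 ± 0.10, with a 95% interval of -0.33 to 0.09. The dimmer Lpar1 probe set was above 0 there, at 0.06 ± 0.17, with a 95% interval of -0.28 to 0.41, while 16 of the 17 tested probe sets of the members were below 0. In that comparison the dimmest Mbp probe set had -0.50 ± 0.12 (adjusted p = 0.312) and the second -0.47 ± 0.15 (adjusted p = 0.619), and neither passed.

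Other genes of mature oligodendrocytes and myelin were set beside the members, from a list of 49, of which 40 were measured. In hippocampus 34 of the 40 were below handled, with a median of -0.17, and 1 passed as lower, where 0.263% of all genes did. That gene, Car2, a carbonic anhydrase of oligodendrocytes, read 971, 1022 and 943 with stress, against 1223, 1191 and 1259 with handling (-0.32 ± 0.07, adjusted p = 0.0312). The summed intensity of the 40 genes was 16008 to 16490 on the hippocampal stress arrays, against 17914 to 18552 on the handled arrays, without overlap. In amygdala 23 of 40 were below handled (median -0.04). There 1 of 40 passed as lower, near the 1.44% of all genes, and this was Klk6, a secreted protease of oligodendrocytes. It read 53.3, 72.0 and 68.3 with stress, against 127, 128 and 105 with handling (-0.76 ± 0.17, adjusted p = 0.0122). In cortex 24 of 40 were below handled (median -0.04), and 2 passed as lower, where 0.302% of all genes did. Apod, an apolipoprotein, passed there with 488, 460 and 430 with stress, against 592, 585 and 579 with handling (-0.34 ± 0.08, adjusted p = 0.0460). Enpp2, which encodes autotaxin, the enzyme that makes the Lpar1 ligand lysophosphatidic acid, was the second cortical gene to pass. It read 399, 374 and 380 with stress, against 503, 547 and 500 with handling (-0.41 ± 0.08, adjusted p = 0.0139).

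Averaged over regions, 5 of the 40 passed as lower, where 2.67% of all genes did, and none passed as higher. They were Klk6 (-0.43 ± 0.10), the chaperone gene Cryab (-0.34 ± 0.07), Car2 (-0.22 ± 0.04), Apod (-0.21 ± 0.04) and Evi2a (-0.17 ± 0.05). The myelin and lymphocyte protein gene Mal did not pass, at 0.07 in amygdala, -0.20 in hippocampus and -0.04 in cortex.

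Genes of oligodendrocyte precursors and committed precursors had a hippocampal median near 0. Of the 20 listed, 13 were measured, and none passed in any region by limma, while 2 in amygdala, 3 in hippocampus and 3 in cortex had an unadjusted p under 0.05. Over all genes, 12.8% in amygdala, 10.9% in hippocampus and 10.7% in cortex reached that level, so 2 of 13 in amygdala was near the share of all genes. The hippocampal median was -0.02, with 7 of 13 below handled. The lineage transcription factor Olig1 read 730, 802 and 753 in stress hippocampus, against 889, 921 and 865 in handled hippocampus, without overlap (-0.22 ± 0.07, adjusted p = 0.186). Pdgfra, the growth factor receptor of the precursors, passed in the average over regions (-0.17 ± 0.04, adjusted p = 0.0291). It was 1 of 13 to pass as lower there, where 2.67% of all genes did. Olig2 was not tested. Of 21 sterol synthesis genes, whose products supply the cholesterol of myelin and of other membranes, 17 were measured and none passed in a single region by limma, with 3, 4 and 2 at an unadjusted p under 0.05 in amygdala, hippocampus and cortex, beside the same shares of all genes. In the average over regions 3 passed as higher: Lss (0.29 ± 0.08), Idi1 (0.22 ± 0.05) and Srebf2 (0.17 ± 0.05), where 1.78% of all genes passed as higher.

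**Figure D3:**
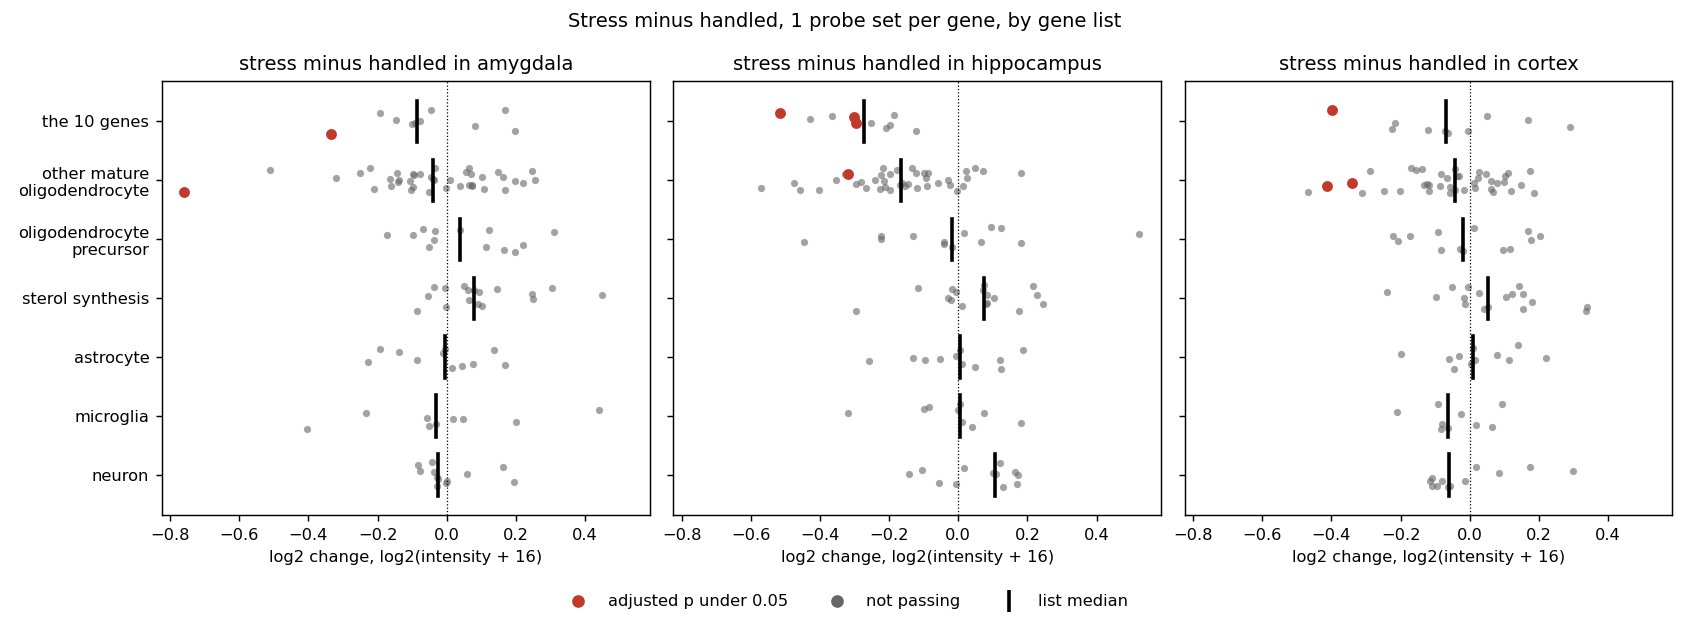
Change with stress (difference of log2(intensity + 16)) of each measured gene, 1 point per gene at its brightest probe set, by gene list and region, red where the adjusted p was under 0.05, with a bar at each list's median. In hippocampus the medians were -0.27 for the 10 genes, -0.17 for other mature oligodendrocyte genes and -0.02 for precursor genes.

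Markers of other cell types were measured on the same arrays. In hippocampus the medians were 0.005 for 11 astrocyte genes, 0.006 for 9 microglia genes, 0.11 for 12 neuron genes and -0.10 for 10 endothelial genes, and none of these genes passed in any single region by limma. At an unadjusted p under 0.05 in hippocampus there were 3 astrocyte, 0 microglia, 4 neuron and 1 endothelial genes, beside the 10.9% of all genes. In cortex the endothelial median was -0.17, further from 0 than the members' -0.07, with 8 of 10 below handled and 4 at an unadjusted p under 0.05, where 10.7% of all genes were. The summed intensity of the 10 endothelial genes there was 1444 to 1476 with stress, against 1661 to 1759 with handling, without overlap. Of 5 choroid plexus genes, Ttr and Sostdc1 passed as higher in hippocampus, where 0.136% of all genes did. The median of the 5 there was 0.20, with 2 of 5 below handled. Their summed intensity was 3533 to 3771 with stress, against 1276 to 1366 with handling. In amygdala that sum was 832 to 929 with stress, against 678 to 713 with handling, also without overlap, and none of the 5 passed there by limma, with 2 at an unadjusted p under 0.05. Of 10 meningeal fibroblast genes, Ptgds, which oligodendrocytes also express, passed as lower in hippocampus, where 0.263% of all genes did. The meningeal median there was -0.30, further from 0 than the members' -0.27, with 6 of 10 below handled and 5 at an unadjusted p under 0.05. Their summed intensity there was 1779 to 1864 with stress, against 2164 to 2289 with handling. In cortex 7 of the 10 meningeal genes passed as lower, where 0.302% of all genes did. Their summed intensity in cortex was 2138 to 2236 with stress, against 4881 to 5157 with handling. In the average over regions all 10 meningeal genes were below 0 (median -0.45) and 7 passed as lower, where 2.67% of all genes did. In that average 1 of 10 endothelial genes (Tek) passed as lower. Those that passed as higher were 1 of 11 astrocyte (Slc1a3), 1 of 12 neuron (Gad1) and 1 of 5 choroid plexus genes (Ttr). Of 11 striatal neuron genes 2 did (Scn4b and Penk), where 1.78% of all genes passed as higher. In amygdala 3 of 11 striatal neuron genes passed as higher (Scn4b, Ppp1r1b and Penk), where 0.487% of all genes passed as higher, with a summed intensity of 4803 to 5018 with stress, against 3610 to 3978 with handling. The part of these other cells in the members' changes was not tested.

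Of 3 control transcripts that read RNA quality, hexokinase alone separated the treatment groups in amygdala. This control, read as the log2 intensity at the 3′ end minus that at the 5′ end, was 1.23 ± 0.07 in stress amygdala and 0.83 ± 0.08 in handled amygdala (SD, n = 3 each), without overlap. In hippocampus it was 1.17 ± 0.15 with stress and 1.02 ± 0.11 with handling, and in cortex 1.28 ± 0.12 with stress and 1.11 ± 0.09 with handling, with overlap in both. The same difference for GAPDH was 0.448 ± 0.0761 in stress amygdala and 0.450 ± 0.0436 in handled amygdala, and for beta-actin 2.15 ± 0.237 in stress amygdala and 2.07 ± 0.0788 in handled amygdala, with overlap for both. With the hexokinase difference as a covariate, chosen after seeing the data, the Lpar1 change was -0.18 in amygdala (adjusted p = 0.83), -0.46 in hippocampus (adjusted p = 0.00742) and -0.33 in cortex (adjusted p = 0.127). None of the 3 members that had passed in the average over regions passed in that fit, where Lpar1 had -0.32 (adjusted p = 0.0610). In that fit 1 of 18625 probe sets passed in amygdala, against 449 without the covariate. Because the amygdala groups do not overlap in this measure, it and the treatment cannot be told apart there. With the beta-actin control as the covariate instead, the Lpar1 calls of all 3 regions were kept.

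The beta-actin control gave a second view of RNA quality. Amygdala stress array 1 had the largest beta-actin 3′ to 5′ difference of the 18 arrays, 2.41, and hippocampus stress array 2 the largest of its region, 1.93. Those arrays also had the lowest value of their group for the second Mbp probe set (2668 against 3679 and 4151, and 4202 against 5644 and 5091). The second Mobp probe set showed the same, with 602 against 1076 and 1131 in stress amygdala, and 1059 against 1426 and 1454 in stress hippocampus. For the brightest probe sets of both genes, amygdala stress array 1 was again the lowest of its group, but hippocampus stress array 2 was the highest. The part of RNA quality in these gaps was not tested. Without hippocampus stress array 2 the members' median in hippocampus was -0.28, against -0.27 with it. Without amygdala stress array 1 the median in amygdala was -0.01, against -0.09 with it.

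**Figure D4:**
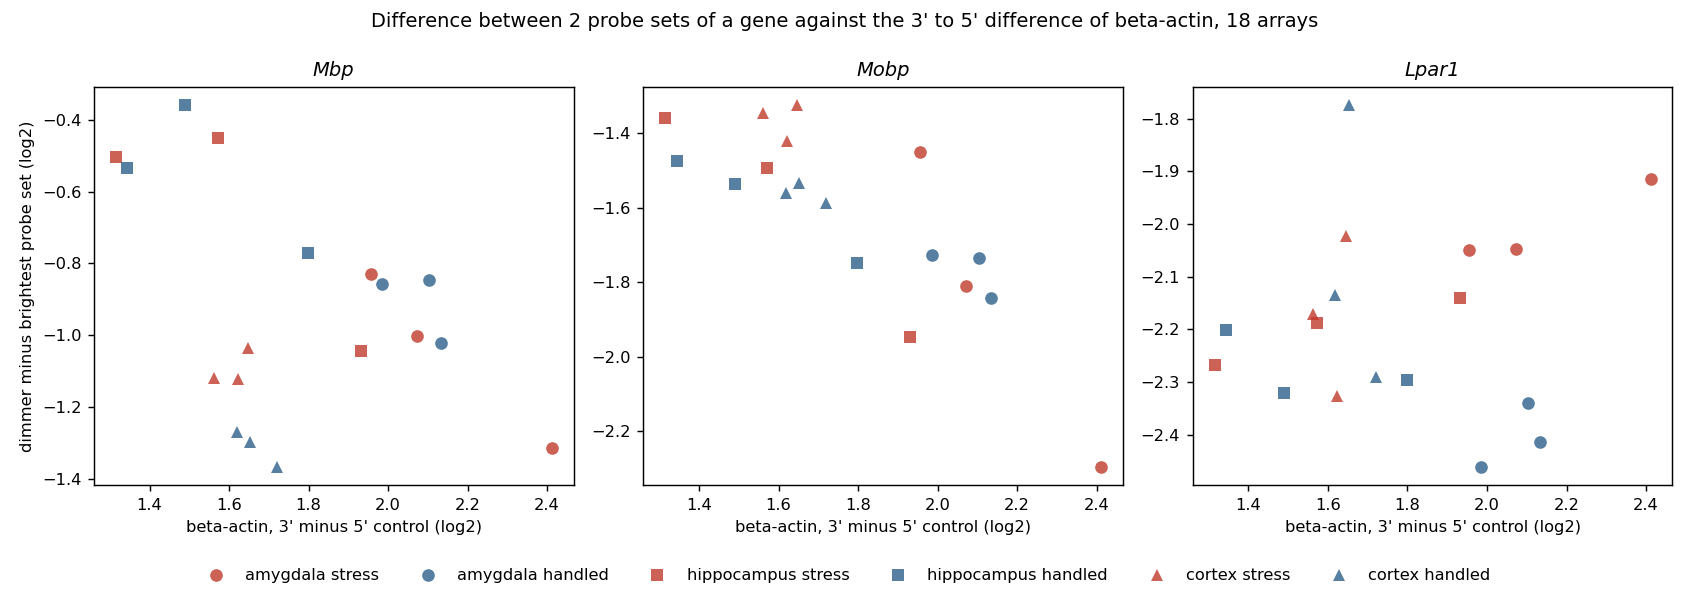
Difference between a gene's second probe set and its brightest (log2, vertical axis) against the 3′ minus 5′ difference of the beta-actin control (log2, horizontal axis) on each of the 18 arrays, with colours for stress and handled and shapes for the regions. The lowest Mobp point is amygdala stress array 1, which has the largest beta-actin difference, 2.41, while the Lpar1 points of stress amygdala lie above those of handled amygdala.

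Over the 18 arrays, each member was set against the mean of the other 9 after standardising. Pearson correlations were 0.715 for Sox10 and 0.824 for Ugt8, and 0.920 to 0.975 for the other 8, the highest being Bcas1. Among genes that are no members, the most alike were Ermn (0.985), Car2 (0.984), Evi2a (0.979), Serinc5 (0.979) and Mal (0.977). Of these, Serinc5 alone was not on the list of oligodendrocyte genes. Septin4 (0.972), Slc44a1 (0.968), Opalin (0.967), Kcnip2 (0.967) and Gna12 (0.963) came next, and of those Opalin alone was on the list. Arrays of 1 region share their tissue, so these values hold the differences between regions as well as those between arrays. After the mean of each region was subtracted, the members' correlations with the other 9 were 0.110 for Mog, 0.242 for Ugt8 and 0.385 for Mag, against 0.768 for Cldn11, 0.724 for Sox10 and 0.701 for Lpar1. The difference between stress and handled was not subtracted, so these values still hold it.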

How the data were processed

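Total RNA from 3 rat brain regions was read on 18 arrays, 3 per region and treatment. The deposited values are linear intensities, 1 per probe set and array; judging by the values, the authors scaled all arrays to the same mean, since the mean without the outer 2% of each tail was 150.04 or 150.05. The software and the summary method are not given in the sources consulted. Such scaling hides a change shared by most bright transcripts. Probe sets were named from the platform annotation, updated through RefSeq: 20832 had 1 gene symbol, 436 several and 9831 none.

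Here, 57 control probe sets were not tested, values were taken as log2(intensity + 16), which shrinks the changes of dim probe sets, and probe sets with a mean of at least 31.68 (the 40th percentile) were kept, 18625 of 31099, with 10267 named genes. The 6 group means were fitted with limma 3.58.1 in R 4.3.3 (12 residual and 10.1 prior degrees of freedom, variance trend, two-sided tests, Benjamini-Hochberg over all tested probe sets, threshold 0.05). Only 3 arrays per group limit the precision; an exact permutation test of 3 against 3 cannot go below a p of 0.1. A gene is its probe set of highest mean. Named are all members, list genes past the threshold, Mal, Olig1, Olig2 and Pdgfra always, and the genes most alike over the arrays. The members and lists were chosen with earlier results of these data known. Offset, filter, scaling, variance trend, arrays fitted, choice of probe set, a replicate block and single arrays left out were the alternatives, with control-transcript covariates added after seeing the data.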

Additional observations from a re-analysis of the deposited data

Results flagged for a closer look

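Enpp2, the autotaxin gene of the list of mature oligodendrocyte genes, differed between regions in its stress effect. The effect was 0.59 ± 0.11 log2 units higher in hippocampus than in cortex (adjusted p = 0.0270 by limma's test of the difference). Its change was 0.18 ± 0.08 in hippocampus (adjusted p = 0.394) and -0.41 ± 0.08 in cortex (adjusted p = 0.0139). In hippocampus Enpp2 read 649, 565 and 693 with stress, against 536, 556 and 578 with handling, and the groups overlapped. In cortex it read 399, 374 and 380 with stress, against 503, 547 and 500 with handling, without overlap. Choroid plexus cells also express Enpp2, and 2 of their 5 measured markers were below handled in hippocampus (median 0.20). The summed intensity of the 5 was 3533 to 3771 in stress hippocampus, against 1276 to 1366 in handled hippocampus. In cortex those sums were 124 to 180 with stress, against 172 to 236 with handling. The cortical fall of Enpp2 stood beside a larger one of the meningeal fibroblast markers. Of these, 7 of 10 passed as lower in cortex, where 0.302% of all genes did. Their sums there were 2138 to 2236 with stress, against 4881 to 5157 with handling. The cortical endothelial sums were 1444 to 1476 with stress, against 1661 to 1759 with handling. The part of any of these cells in the Enpp2 difference was not tested.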

How the results depend on the processing

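Of the members' changes at their brightest probe sets under the alternatives, 1932 kept their direction and their side of the threshold. A further 49 lost a call, 7 gained one, and none of the called changes turned its sign. Another 32 changes that had not passed turned their sign. The choice of probe set is not in these counts. At the dimmer probe set of Lpar1 the amygdala change was 0.07, against -0.34 at the brightest, and the hippocampal change did not pass (adjusted p = 0.115 by limma). The count of members past the threshold in hippocampus, 3, became 1 (Lpar1) with no filter, median centring, no variance trend, the replicate block, the hexokinase covariate, or only the arrays compared. With all probe sets of a gene, where a gene counted if most of its tested probe sets passed, it became 1 as well, but this was Bcas1. Lpar1 did not count there, because 1 of its 2 probe sets passed. In amygdala the count of 1 became 0 with no variance trend, all probe sets of a gene, the hexokinase covariate, or only the arrays compared. In cortex the count of 1 became 0 with no variance trend, the replicate block, all probe sets of a gene, or the hexokinase covariate. The average over regions, 3, became 0 with the hexokinase covariate, where Lpar1 had -0.32 (adjusted p = 0.0610). It became 2 with no variance trend (Cldn11, adjusted p = 0.0660) or all probe sets of a gene, and 4 with the 60th-percentile filter (Sox10, adjusted p = 0.0488) or the beta-actin covariate (Sox10, 0.0427). For hippocampus minus cortex in the stress effect, 0 became 1 (Mag) with only the arrays compared.

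Leaving out single arrays gave 0 to 1 in amygdala, 1 to 3 in hippocampus, 0 to 1 in cortex, 3 to 5 in the average over regions and 0 to 0 for each difference between 2 regions in stress effect. For the handled arrays it gave 8 to 9 for amygdala minus hippocampus, 9 to 10 for amygdala minus cortex and 10 to 10 for hippocampus minus cortex. The members' median stayed between -0.31 and -0.24 in hippocampus, between -0.10 and -0.01 in amygdala and between -0.10 and -0.03 in cortex. In hippocampus the count fell to 1 without hippocampus stress array 2 or 3, without any 1 of the handled hippocampus arrays, and without cortex stress array 1 or 2 or cortex handled array 2. The average gained Sox10 (adjusted p = 0.0202) and Mbp (0.0461) without hippocampus stress array 2, Mbp (0.0373) without hippocampus handled array 3 and Sox10 (0.0403) without cortex handled array 2. Same-numbered stress and handled arrays of a region had correlations of -0.033 to 0.009 in their deviations, and same-numbered arrays of 2 regions under 1 treatment had -0.044 to 0.099, the highest for stress arrays 3 of amygdala and hippocampus. None was over 0.1, so the numbers were not taken to pair the arrays. Median centring changed which direction held more of the calls over all probe sets between handled regions (2916 higher and 2404 lower became 2423 and 2921 for amygdala minus hippocampus), but the members' directions stayed.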

Other observations

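With region means subtracted, the genes that are no members and followed the members' mean most closely over the 18 arrays were Ldb2 (Pearson r = 0.873, Spearman rho = 0.787), Ttyh2 (0.847 and 0.839) and Sfmbt2 (0.843 and 0.845). Erbin, Adgrl2, Rps24, Igdcc4, Pou3f1, Stim1 and Rhov followed, with Pearson values of 0.801 to 0.836. None of them is on the lists of oligodendrocyte or precursor genes. Pou3f1, a POU-domain transcription factor, is known for its role in myelination by Schwann cells. These values rest on the same 18 arrays as the members' changes and carry no test. They still hold the difference between stress and handled, which was not subtracted.

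The probe set of Ugt8 that was not tested read 0.359 to 9.80 on the 18 arrays, far under the filter, while the tested probe set of the same gene read 119 to 343. A dim and a bright probe set of 1 gene thus stood side by side on every array, and the part of the transcript that each reads is not known here.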
